A study of Mus musculus with 40 samples.

Results

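Endothelial cells line every vessel of the heart and seal against their neighbours by adherens and tight junctions. A set of 10 genes of these junctions and of endothelial identity was described here in mouse hearts in which cardiomyocytes were made to express *Il11*, the gene of the secreted cytokine interleukin 11. The set held *Cdh5*, *Pecam1*, *Cldn5*, *Esam*, *Emcn*, *Nos3*, *Egfl7*, *Robo4*, *Cav1* and *Cav2*, chosen by name, and all 10 were listed in both expression tables, which held 17646 genes for male and 17223 genes for female hearts. All 10 passed the filter on low values in both sexes (a level of at least 0.5 in at least 3 libraries), which left 16931 male and 16956 female genes for testing.

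Bulk polyA RNA of 40 hearts (left ventricle, by the study's methods) was sequenced, 20 of each sex. Every mouse was heterozygous for the α-MHC-MerCreMer (MCM) transgene, a tamoxifen-activated Cre recombinase driven by a cardiomyocyte promoter. CM-Il11-Tg mice carried in addition 1 copy of *Rosa26-Il11*, from which *Il11* is expressed once Cre has acted, and control littermates, whose genotype the labels give as WT, carried none. The *Rosa26-Il11* line was on C57BL/6N and the MCM line on C57BL6/J, and tamoxifen was started at 8 weeks of age. Control mice were given tamoxifen (n = 3 male and 4 female hearts analysed), CM-Il11-Tg mice were taken 1, 3 or 6 weeks after tamoxifen (n = 4 per group, 3 for male hearts at 6 weeks), and uninduced CM-Il11-Tg mice were given none (n = 4 per sex). The labels put control and uninduced hearts at baseline rather than at a week, so any later age of the induced hearts, most of all at 6 weeks, cannot be told apart from the time since induction. The remaining 2 male libraries had titles and descriptions that named opposite groups and entered no comparison. A control library thus differed from an induced library by the *Rosa26-Il11* allele, and an uninduced library from an induced library by tamoxifen. Age, and for control hearts the time since tamoxifen, may differ as well.

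Levels are given as deposited, in CPM, the usual name for depth-scaled counts, which here are reads divided by a single factor per library. The libraries held 16663513 to 65333832 reads on listed genes, and between 133 and 18368 reads fell on any of the 10 genes in any male library and between 215 and 5851 in any female library. *Il11* itself stood at 0 to 0.147 CPM in male control hearts, at 16.5 to 23.3 in uninduced hearts and at 336 to 819 after induction, and no 2 of these ranges overlapped. In female hearts the ranges were 0 to 0.166, 15.5 to 49.15 and 328 to 614 CPM. The summed level of 10 cardiomyocyte markers, led by sarcomere genes, was 43730 to 79880 CPM in every library. Differences came from a limma model of log2(CPM + 0.5) that held the 5 groups of a sex together, with p-values adjusted over all genes tested; a gene was called at an adjusted p under 0.05. The tables of the sexes were normalised separately, so tests stay within a sex, and a difference between the sexes was not tested. All comparisons with control share the same 3 male or 4 female control libraries, and nothing states that libraries of a group came from separate litters or days, so p-values measure the spread between these libraries.

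The junctions have a known layout. VE-cadherin, the product of *Cdh5*, holds adherens junctions together through catenins, PECAM1 and ESAM are immunoglobulin-like adhesion proteins at cell borders, and claudin 5 (*Cldn5*) closes the tight junctions. The other 6 mark endothelial identity. Endomucin (*Emcn*) is a sialomucin of capillary and venous surfaces, and *Nos3* encodes endothelial nitric oxide synthase. Caveolin 1 and caveolin 2 (*Cav1*, *Cav2*) coat the membrane pits called caveolae, and caveolin 1 binds that synthase. EGFL7 is secreted by endothelial cells, and ROBO4 is a receptor that stabilises vessels. Several of these genes are also expressed elsewhere, *Pecam1* in platelets and leukocytes and the caveolins in fibroblasts, smooth muscle and adipocytes. In a bulk sample, fewer endothelial cells and less RNA of these genes per cell cannot be told apart.

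The genes lie on 8 chromosomes of GRCm39, and 2 pairs are neighbours: *Cav2* (chr6:17281026-17289877) ends 16262 bases before *Cav1* (chr6:17306140-17341451), and *Robo4* (chr9:37313193-37326411) ends 112932 bases before *Esam* (chr9:37439344-37449615), all on the plus strand. RefSeq promoter sequences (GRCm38.p6) were on hand for 6 of the 10 genes, *Cldn5*, *Emcn*, *Egfl7*, *Robo4*, *Cav1* and *Cav2*, in 9 windows of the 250 bases before a RefSeq start site; those of *Cdh5*, *Pecam1*, *Esam* and *Nos3* were not analysed here. In the GENCODE annotation of GRCm39 all of these genes but *Cldn5* start before the RefSeq site, so the last 75 bases of the *Robo4* window, 194 of the first *Cav1* window, 158 of the *Cav2* window and 45 of the *Emcn* window lie inside the gene, as do the second *Cav1* window and the windows of *Egfl7* in full. Shown are the bases before the GENCODE start for 3 genes called lower in female hearts at every week (*Robo4*, *Cav1*, *Cav2*) and for *Emcn*, which was called in no comparison with control, with coordinates from an exact match to GRCm39. All 4 are on the plus strand, and capitals mark AGGAA or its reverse complement TTCCT, the core that ETS factors such as ERG bind.
Robo4, chr9:37313018-37313192: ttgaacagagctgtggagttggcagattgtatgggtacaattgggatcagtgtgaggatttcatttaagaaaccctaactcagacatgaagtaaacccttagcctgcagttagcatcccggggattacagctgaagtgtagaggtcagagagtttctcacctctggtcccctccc
Cav1, first of 2 windows, chr6:17306084-17306139: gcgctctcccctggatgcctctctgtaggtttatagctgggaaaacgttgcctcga
Cav2, chr6:17280934-17281025: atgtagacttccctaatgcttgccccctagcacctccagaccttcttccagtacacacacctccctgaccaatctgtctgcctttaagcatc
Emcn, chr3:137046589-137046793: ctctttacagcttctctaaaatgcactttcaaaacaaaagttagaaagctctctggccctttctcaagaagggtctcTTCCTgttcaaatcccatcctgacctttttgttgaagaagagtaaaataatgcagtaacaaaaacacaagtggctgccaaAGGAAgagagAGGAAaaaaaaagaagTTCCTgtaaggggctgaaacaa

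In the full windows of 250 bases, *Emcn* held 4 such cores, all before the gene's start, and *Robo4* held 2, both inside the gene and so not shown. The first of the 3 windows of *Egfl7* also held 4, the second 1 and the third 0, and the window of *Cldn5* held 0. The window of *Cav2* and the first window of *Cav1* held none, and the second window of *Cav1* held 2. Over all 32851 promoter windows of the table, 60.3% held at least 1 core and 9.02% at least 3, and 5 of the 9 windows of the set held 1 or more. The STAT motif TTCNNNGAA was in none of the 9 windows and in 7.02% of all windows, and the GATA motif AGATAA was likewise in none, against 9.99%. The SOX core ACAAT was in 2 of 9 windows (27.7% of all), the KLF core CACCC in 2 (52%) and the E-box CANNTG in 7 (66.2%), each searched on both strands. A match describes letters in a window and says nothing about binding.

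In female hearts, 7 or 8 of the 10 genes were called lower than control at each week, and in male hearts 5 of 10 at 1 week and 1 of 10 at 3 and at 6 weeks. *Cdh5*, the adherens junction cadherin, was lower at every week in both sexes, and *Nos3*, *Robo4*, *Cav1* and *Cav2* were lower at every week in female hearts and at 1 week in male hearts. *Pecam1* and *Emcn* were called in no week of either sex, and *Esam*, *Egfl7* and *Cldn5* were called lower in 3, 2 and 2 of the female comparisons and in 0 male comparisons. No member was called higher in any of the 6 comparisons with control, nor at an unadjusted p under 0.05, nor by edgeR or DESeq2.

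At 1 week, 5 of the 10 genes were called lower in male hearts, where 14.6% of all genes tested were, and 8 of 10 in female hearts (13.1% of all). At 3 weeks the counts were 1 of 10 in male hearts (8.1% of all) and 7 of 10 in female hearts (14.5%). At 6 weeks they were 1 of 10 (10.9%) and 7 of 10 (21%), so the male counts at 3 and 6 weeks were near the share over all genes. Among all genes, 18.9%, 13.2% and 16.2% were called higher in male hearts at the 3 weeks and 15.3%, 16.8% and 21.7% in female hearts. Members whose induced libraries all lay below every control numbered 5, 4 and 3 in male hearts at 1, 3 and 6 weeks and 8, 6 and 5 in female hearts, while 18.9%, 14.7% and 17.3% of all male and 16.2%, 18.6% and 17.9% of all female genes did so. The median log2 fold change of the 10 genes was -0.44, -0.34 and -0.30 in male hearts and -0.58, -0.59 and -0.59 in female hearts, with the median of all genes between -0.02 and 0.02. *Cdh5* and *Nos3* were among the endothelial markers that the study chose to display from these same hearts, so their direction is not independent evidence.

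**Figure D1:**
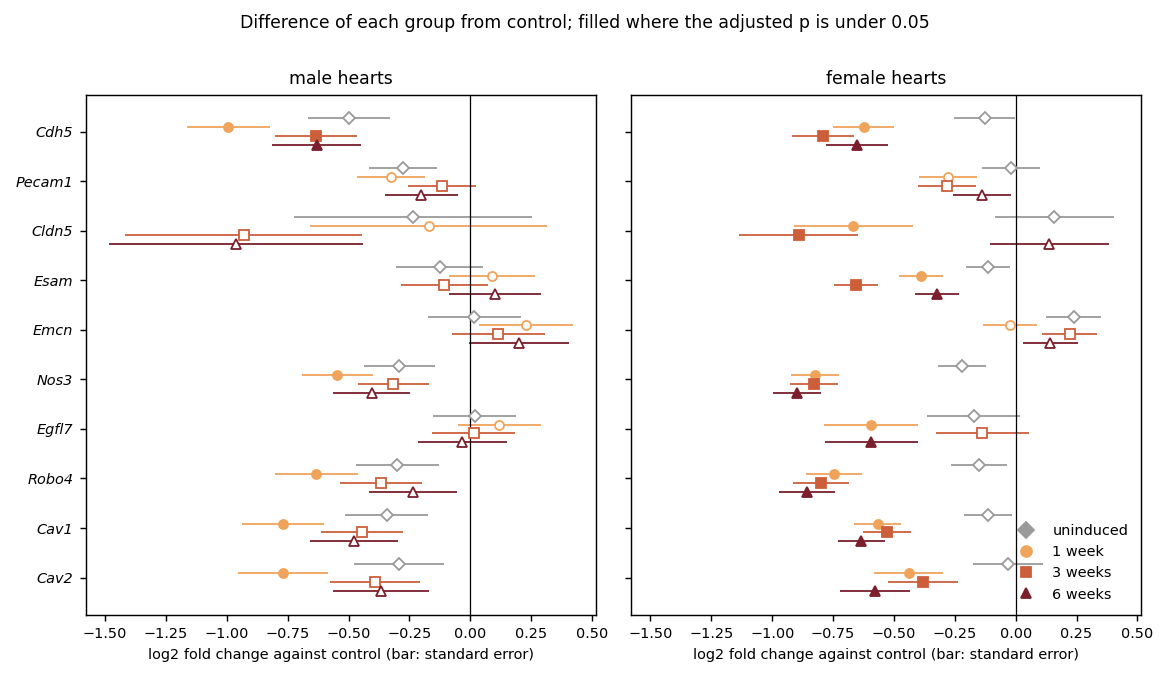
Log2 fold change of each gene against control (horizontal axis, bars are standard errors) in male (left) and female (right) hearts, for uninduced hearts and at 1, 3 and 6 weeks; filled marks have an adjusted p under 0.05. Female Nos3, Robo4, Cav1 and Cdh5 lie between -0.53 and -0.90 at every week, whereas Emcn lies between -0.02 and 0.23 at the 3 weeks in both sexes.

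*Cdh5* was the member called at every week in both sexes. Its level was 252, 236 and 299 CPM in control hearts and 178, 165, 178 and 221 in uninduced hearts. After induction it was 156, 124, 151 and 100.3 at 1 week, 193, 196, 145 and 145 at 3 weeks and 162, 141 and 209 at 6 weeks. Each of the 11 induced male libraries was below the lowest control, and so were the 4 uninduced ones. The left-out library described as control held 205.7 CPM, less than the highest 6-week and uninduced values (209 and 221). The log2 fold change against control was -0.99 (SE 0.17, adjusted p = 0.000179) at 1 week, -0.63 (SE 0.17, adjusted p = 0.01) at 3 weeks and -0.63 (SE 0.18, adjusted p = 0.0134) at 6 weeks. The call was lost without the libraries numbered 3 at 3 weeks (-0.64, adjusted p = 0.0661) and without those numbered 1 or 3 at 6 weeks (-0.63 and -0.58, adjusted p = 0.0753 and 0.104). The uninduced hearts differed by -0.50 (SE 0.17), which did not pass (adjusted p = 0.262).

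Female control hearts held *Cdh5* at 194, 203, 263 and 225 CPM and uninduced hearts at 225, 208, 179.8 and 194. The induced hearts were at 129, 141, 148 and 151 at 1 week, 146, 110.4, 124 and 129 at 3 weeks and 131, 133, 186 and 118 at 6 weeks. All 12 induced libraries lay below the lowest control, and the uninduced ones overlapped the controls. The log2 fold changes were -0.62 (adjusted p = 0.000842), -0.79 (6.43e-05) and -0.65 (0.000369), each with an SE of 0.13, so that the cadherin's level at 3 weeks was 0.578 times that of control.

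*Pecam1*, the other long-known border adhesion gene, was called in no comparison with control in the fit of all 5 groups. It ranged from 160.1 to 192 CPM in male control hearts and from 109.6 to 180 over all male induced hearts, with overlapping groups at every week. In female hearts it ranged from 162 to 180 CPM in control and from 118 to 189.5 after induction, and the groups did not overlap at 1 and 3 weeks and did at 6 weeks. Its log2 fold changes were -0.33, -0.12 and -0.20 in male hearts (adjusted p = 0.0782, 0.622 and 0.34) and -0.28, -0.28 and -0.14 in female hearts (0.0886, 0.0769 and 0.363). Scaled to each library's sum, the value turned to 0.03 and 0.15 in male hearts at 1 and 3 weeks and to 0.07, 0.07 and 0.26 in female hearts, still without a call. It was called lower in female hearts at 1 and 3 weeks with only the compared groups in the fit (-0.28 and -0.28, adjusted p = 0.0353 and 0.0233) and after a correction for GC content and length (-0.36 and -0.36, adjusted p = 0.0139 and 0.0121), and with that correction also in male hearts at 1 week (-0.38, adjusted p = 0.0259). Markers of other cells that carry *Pecam1* moved at the same time: all 10 macrophage markers were called higher at each week in both sexes, with a summed level of 237 to 385 CPM in male control hearts and 867 to 1385 after induction. The female sums were 219 to 282 and 1029 to 1368 CPM. Without tamoxifen, the female sum was already 407.9 to 551.5 CPM, with all 10 markers called higher than control, where 2.87% of all genes were called. The male uninduced sum was 344 to 489.9 CPM, with 0 called. Other leukocyte markers were called only in part. Of 7 tested in male hearts 2, 2 and 3 were called higher and 0, 1 and 0 lower (18.9%, 13.2% and 16.2% of all genes higher). Of 9 in female hearts 3, 4 and 5 were called higher and 0 lower (15.3%, 16.8% and 21.7% of all genes higher). The summed platelet markers were 10.3 to 12.8 CPM in male control and 23.8 to 47.4 in induced hearts, and 10.3 to 15.3 and 20.9 to 36.7 in female hearts. Uninduced hearts held 14.9 to 21.8 CPM in male and 16.2 to 25.3 in female hearts. Of 5 platelet markers tested, 2, 2 and 3 were called higher and 0, 0 and 1 lower in male hearts. In female hearts 2, 2 and 2 were called higher and 1, 0 and 1 lower, so the platelet list did not move as a whole. The part of these cells in the *Pecam1* level was not tested.

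*Esam*, a tight junction adhesion gene, fell in female hearts and showed no call in male hearts. Female control hearts held 93.6, 85.6, 96.1 and 96.8 CPM, and those at 3 weeks 61.2, 54.9, 59.7 and 59.5. The ranges at 1 and 6 weeks were 65.7 to 78.9 and 68.2 to 77.3 CPM, so no induced female library reached the lowest control at any week. The log2 fold changes were -0.39 (SE 0.09, adjusted p = 0.00278), -0.66 (1.06e-05) and -0.32 (0.00711). The 6-week call was lost without the libraries numbered 1 (-0.28, adjusted p = 0.0747), and scaling to the sum turned that value to 0.07 (adjusted p = 0.584). In male hearts the level was 76.9, 64.7 and 74 CPM in control and 69.1, 60.8 and 108 at 6 weeks, and the changes were 0.09, -0.11 and 0.10 with no call. Both positive male values turned negative without the libraries numbered 4 (-0.01 at 1 week and -0.12 at 6 weeks).

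*Cldn5* varied widely between libraries. Male induced hearts held 15.9, 14.7, 11.9 and 26.3 CPM at 1 week, 17.8, 13.9, 5.36 and 6 at 3 weeks and 28.9, 4.7 and 5.69 at 6 weeks, against 21.9, 15.4 and 19 in control hearts. The groups overlapped, the coefficient of variation reached 105% at 6 weeks, and no male week was called (log2 fold change -0.17, -0.93 and -0.96, with SEs of 0.49, 0.49 and 0.52), although without the libraries numbered 1 the 6-week value was -1.64 (adjusted p = 0.0209). Among female hearts the controls themselves spread over 9.86, 11, 31.3 and 24.1 CPM. Levels were 9.32, 10.2, 11.6 and 11 at 1 week, 10.3, 8.17, 8.94 and 8.38 at 3 weeks and 19.8, 21.7, 18.9 and 15.1 at 6 weeks. The female fall was called at 1 week (-0.67, SE 0.25, adjusted p = 0.0476) and at 3 weeks (-0.89, adjusted p = 0.00867) but not at 6 weeks (0.14, adjusted p = 0.676), with groups that overlapped throughout. The 1-week call was lost in 7 of the 15 other settings, the 3-week call was lost without the libraries numbered 3 or 4 (-0.60 and -0.70, adjusted p = 0.0882 and 0.0995), and the value at 6 weeks turned to -0.14 and -0.13 without the libraries numbered 1 or 2 and to -0.01 with edgeR. Against the 3-week hearts, the 6-week female hearts were higher by 1.03 on the log2 scale, which was not called (adjusted p = 0.136).

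**Figure D2:**
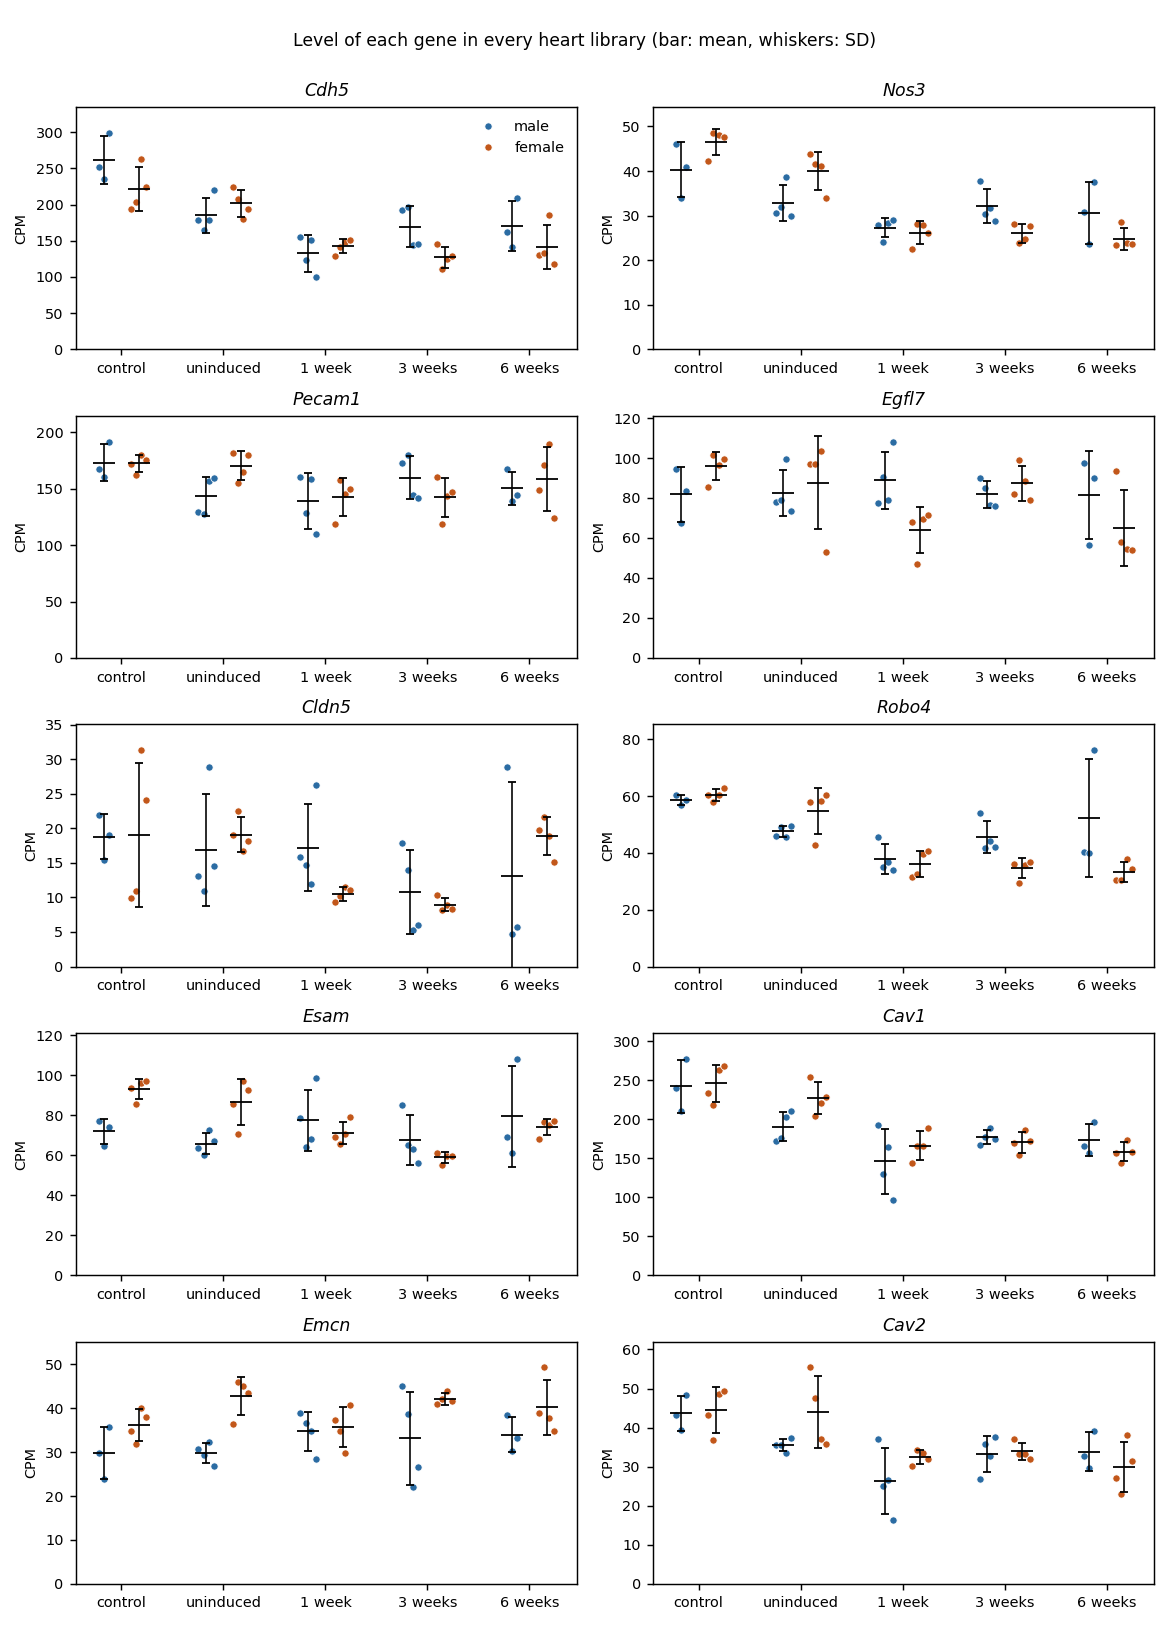
Level of each of the 10 genes in CPM (vertical axis, from 0) in every grouped library, male in blue and female in orange, by group; bars are means and whiskers SDs, and the lower whisker of male Cldn5 at 6 weeks runs below 0 and is not drawn further. The 12 induced female libraries sit below every female control for Cdh5, Esam, Nos3, Robo4 and Cav1, while Emcn overlaps its controls in every male group.

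*Emcn*, the capillary and venous sialomucin, was called lower at no week. It stood at 29.8, 23.8 and 35.7 CPM in male control hearts and at 38.9, 36.7, 34.9 and 28.5 at 1 week, 45, 38.8, 22.1 and 26.6 at 3 weeks and 38.4, 30.4 and 33.3 at 6 weeks. Female control hearts were at 34.9, 31.8, 40.1 and 38 CPM and induced hearts at 37.4, 34.9, 29.9 and 40.7 at 1 week, 41, 42.1, 44 and 41.6 at 3 weeks and 39, 49.3, 37.7 and 34.8 at 6 weeks. The groups overlapped except in female hearts at 3 weeks, where every library was above every control. The log2 fold changes were 0.23, 0.12 and 0.20 in male hearts and -0.02, 0.22 and 0.14 in female hearts, with SEs of 0.11 to 0.21 and adjusted p-values of 0.142 to 0.903. Scaled to the sum of each library, *Emcn* was called higher in male hearts at 1 week (0.58, adjusted p = 0.0292) and in female hearts at each week (0.32, 0.57 and 0.54, adjusted p = 0.032, 0.000569 and 0.000696).

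*Nos3*, the endothelial nitric oxide synthase, was lowered in every induced female heart. Control hearts held 42.2, 48.5, 48 and 47.6 CPM and uninduced hearts 43.7, 41.7, 41 and 33.9. The levels were 22.6, 28, 28 and 26.1 at 1 week, 28.1, 23.8, 24.6 and 27.6 at 3 weeks and 23.4, 28.5, 23.8 and 23.6 at 6 weeks. None of the 12 induced libraries reached the lowest of the 8 others, and the log2 fold changes were -0.82, -0.83 and -0.90, each with an SE of 0.10 (adjusted p = 1.97e-06, 1.55e-06 and 3.94e-07). Male control hearts held 46.2, 33.9 and 40.9 CPM and those at 1 week 27.8, 24.1, 28.3 and 29, with no overlap and a change of -0.55 (SE 0.15, adjusted p = 0.00756). At 3 and 6 weeks the male levels were 37.8, 30.4, 31.7 and 28.9 and 30.8, 23.6 and 37.4, which overlapped the controls, and the changes of -0.32 (adjusted p = 0.141) and -0.41 (0.0624) were not called. Without the libraries numbered 4, the male value at 6 weeks was -0.55 (adjusted p = 0.0365), and without those numbered 1 the 1-week call was lost (-0.45, adjusted p = 0.0777).

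*Nos3* shares its locus with *Gm15587* and *Atg9b*, which run on the opposite strand. The group means of both were at most 1.15 CPM, against 24.8 to 46.6 for *Nos3*. Whether counting used the strand is not given in the sources used here. Of the other nitric oxide genes, 12 of 14 were tested in each sex. In male hearts 2, 1 and 0 were called higher and 1, 1 and 2 lower at 1, 3 and 6 weeks, and in female hearts 1, 3 and 4 higher and 1, 2 and 1 lower. Over all genes, 18.9%, 13.2% and 16.2% were called higher and 14.6%, 8.1% and 10.9% lower in male hearts. The female shares were 15.3%, 16.8% and 21.7% higher and 13.1%, 14.5% and 21% lower. *Nos2*, the inducible synthase, was lower in female hearts at each week (-0.66, -0.64 and -0.53, adjusted p = 0.00885, 0.0094 and 0.0217) and in male hearts at 1 and 3 weeks (-0.81 and -0.93, adjusted p = 0.00898 and 0.00482). *Gch1*, which makes the synthase's cofactor, was not called (-0.16 to 0.14 over the 6 comparisons).

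*Cav1* and *Cav2*, neighbouring genes whose proteins assemble together, were both called lower at every week in female hearts and at 1 week in male hearts. *Cav1* was at 234, 219, 264 and 269 CPM in female control hearts. Female hearts held 144, 166, 165 and 189 at 1 week, 169.5, 154, 186 and 172 at 3 weeks and 157, 144, 174 and 158 at 6 weeks, all below the lowest control. The log2 fold changes were -0.57, -0.53 and -0.63 (SE 0.10, adjusted p = 0.000166, 0.000298 and 3.01e-05). Male control hearts were at 239.9, 210.1 and 278 CPM and male hearts at 1 week at 192, 129.7, 164 and 97, a change of -0.77 (SE 0.17, adjusted p = 0.00175) without overlap. The male levels of 168, 178, 189 and 174 at 3 weeks and 166, 157 and 197 at 6 weeks were also all below the lowest control, but the changes of -0.45 (adjusted p = 0.0683) and -0.48 (0.0563) did not pass, and the latter passed without the libraries numbered 4 (-0.47, adjusted p = 0.0391).

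*Cav2* fell from 43.2, 39.4 and 48.3 CPM in male control hearts to 37.1, 25.1, 26.6 and 16.4 at 1 week (log2 fold change -0.77, SE 0.18, adjusted p = 0.00336). At 3 and 6 weeks it lay between 26.9 and 39.2 CPM, below every control, with changes of -0.39 and -0.37 that were not called (adjusted p = 0.145 and 0.18). In female hearts it went from 43.2, 36.8, 48.7 and 49.4 CPM to 30.2, 34.3, 33.4 and 32 at 1 week, 37.2, 33.2, 33.3 and 31.8 at 3 weeks and 27.1, 23.1, 38 and 31.5 at 6 weeks. The changes were -0.44, -0.38 and -0.58 (SE 0.14, adjusted p = 0.0255, 0.0477 and 0.00297), and the groups overlapped at 3 and 6 weeks. The 1-week and 3-week calls were lost when the libraries numbered 1, 3 or 4 were left out, with values of -0.38 to -0.42 and -0.30 to -0.44. Within groups, *Cav1* and *Cav2* varied together from library to library (Pearson's r = 0.866 over 18 male and 0.551 over 20 female libraries, a description).

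Other genes of the caveolar coat were called in both directions. Of 9 other coat genes, 4, 3 and 3 were called lower and 2, 1 and 1 higher in male hearts, where 14.6%, 8.1% and 10.9% of all genes were called lower. In female hearts 3, 3 and 2 were called lower and 0, 1 and 1 higher, with 13.1%, 14.5% and 21% of all genes called lower. The female count of 2 of 9 at 6 weeks was near that share. The list's median was -0.23, -0.19 and -0.27 in male and -0.06, -0.17 and -0.08 in female hearts, and it turned positive at 1 and 3 weeks in male hearts and at all weeks in female hearts when libraries were scaled to their sum. *Cavin2* fell in male hearts (-0.71, -0.65 and -0.75, adjusted p = 8.69e-05, 0.000257 and 0.000107) and in female hearts at 1 and 6 weeks (-0.58 and -0.42, adjusted p = 0.00839 and 0.0362). *Cavin4*, a muscle coat gene, fell at each week in male hearts (-0.84, -0.71 and -0.86) and at 1 and 3 weeks in female hearts (-0.46 and -0.72, adjusted p = 0.0496 and 0.00302). *Cavin3* rose in male hearts by 1.03, 0.70 and 1.04 (adjusted p = 0.000154, 0.00547 and 0.000285) and in female hearts at 3 and 6 weeks by 0.61 and 0.93 (0.0181 and 0.000535). *Cavin1*, needed for caveolae in all cells, was not called in either sex (-0.23 to 0.17).

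*Robo4*, the endothelial Robo receptor, fell in female hearts at every week. Its level was 60.5, 57.9, 60.5 and 62.8 CPM in control hearts, 31.4, 32.7, 39.5 and 40.6 at 1 week, 36.3, 29.5, 35.8 and 37 at 3 weeks and 30.6, 30.4, 37.9 and 34.3 at 6 weeks. Every induced library was below every control and uninduced library, with log2 fold changes of -0.75, -0.80 and -0.86 (SE 0.11, adjusted p = 4.53e-05, 1.61e-05 and 5.09e-06). Male control hearts held 60.6, 56.8 and 58.6 CPM, male hearts at 1 week 45.6, 35, 36.9 and 34.1 (-0.63, SE 0.17, adjusted p = 0.00733) and those at 3 weeks 54.1, 41.8, 44.3 and 42.2 (-0.37, adjusted p = 0.138), both below every control. At 6 weeks the male values were 40.4, 39.9 and 76.2, and the change of -0.24 (adjusted p = 0.361) became -0.54 (adjusted p = 0.0124) without the libraries numbered 4, to which the highest value belongs, while the 1-week call was lost without those numbered 3 (-0.65, adjusted p = 0.0552). *Slit2* and *Slit3*, genes of Slit ligands, rose in every comparison of induced hearts with control, with adjusted p-values of at most 0.000315. They were the only genes called higher in a list of other Slit and Robo pathway genes. Of 8 tested in male hearts 1, 0 and 2 were called lower (14.6%, 8.1% and 10.9% of all genes). Of 7 in female hearts 1, 2 and 2 were called lower (13.1%, 14.5% and 21%). The list's medians lay between -0.04 and 0.12. *Slit2* rose by 1.88, 2.50 and 2.78 in male and 1.99, 2.66 and 2.79 in female hearts, and *Slit3* by 1.86, 2.25 and 2.35 and by 2.46, 2.36 and 2.80. *Slit3* was already called higher than control in uninduced male hearts (0.81, adjusted p = 0.00512). *Unc5b*, a binding partner of ROBO4, was lower at 1 and 6 weeks in male hearts (-0.62 and -0.72, adjusted p = 0.0477 and 0.0387) and was not called in female hearts.

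*Egfl7*, a secreted factor of endothelial cells and host of the microRNA gene *Mir126a*, was called lower in female hearts at 1 and 6 weeks. Female control hearts were at 85.7, 102, 96.6 and 99.3 CPM, and induced hearts at 68.1, 47, 69.4 and 71.7 at 1 week, 82.1, 99.1, 88.7 and 79.1 at 3 weeks and 93.3, 57.9, 54.7 and 54.1 at 6 weeks. The changes at 1 and 6 weeks were -0.59 and -0.59 (SE 0.19, adjusted p = 0.0249 and 0.0178), that at 3 weeks -0.14 (0.633), and the groups overlapped at 3 and 6 weeks. Both calls were lost without the libraries numbered 2 (-0.42 and -0.52, adjusted p = 0.223 and 0.0892) or 3 (-0.63 and -0.52, adjusted p = 0.0646 and 0.105). Male levels ranged from 67.3 to 94.7 CPM in control and from 56.3 to 108 after induction, and the changes of 0.12, 0.01 and -0.03 were not called. *Agpat2*, on the opposite strand of the same locus, stood at 33.8 CPM in male control hearts and rose at 1 and 6 weeks (0.52 and 0.61, adjusted p = 0.0178 and 0.0127), and it was not called in female hearts.

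A list of other junction genes was counted next. It held binding partners of VE-cadherin and of tight junctions, and also gap junction genes, *Cdh2* and other adhesion genes. Of 19 genes of this list tested, 8, 6 and 6 were called lower and 0 higher in male hearts at 1, 3 and 6 weeks. In female hearts 4, 6 and 4 were called lower and 1, 0 and 3 higher. Over all genes 14.6%, 8.1% and 10.9% were called lower in male and 13.1%, 14.5% and 21% in female hearts, and the female count at 6 weeks was at that share. *Tjp1*, the tight junction scaffold, fell in every comparison, by 1.22, 0.84 and 1.11 on the log2 scale in male hearts and by 0.47, 0.70 and 0.73 in female hearts (adjusted p = 1.08e-05 to 0.0212). *Jam2*, an adhesion gene of the family of *Esam*, was lower at 1 and 3 weeks in male hearts (-0.72 and -0.41) and at all weeks in female hearts (-0.36, -0.51 and -0.45). *Ctnnd1*, the catenin that holds VE-cadherin at the membrane, was not called (-0.33 to 0.05), and neither was *Cdh2*, the cadherin of cardiomyocytes (-0.07 to 0.23). *Tjp1*, *Jup* and *Cdh2* are also expressed by cardiomyocytes. The median of the list was -0.28, -0.17 and -0.23 in male and -0.08, -0.08 and -0.05 in female hearts. Scaling to the sum turned it positive in 5 of these 6 comparisons, with 0 called lower in female hearts.

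To compare members with one another, each gene was also set against the mean of the 10 genes in the same library. That mean was 6.17 log2 units in male control hearts and 5.80, 5.86 and 5.87 at 1, 3 and 6 weeks, and 6.26, 5.74, 5.75 and 5.82 in female hearts. With a lower mean, a gene that did not change stands higher against it, and 38.3%, 24.2% and 26.3% of all genes were called in male and 63.8%, 65.1% and 57.8% in female hearts. The counts within the set were 4, 0 and 1 of 10 in male hearts and 2, 4 and 5 of 10 in female hearts. *Emcn* stood higher against the mean in 5 of the 6 comparisons, by 0.61 and 0.50 at 1 and 6 weeks in male hearts (SE 0.18 and 0.19) and by 0.49, 0.73 and 0.58 in female hearts (SE 0.13, adjusted p = 0.00214, 5.28e-05 and 0.000535). *Nos3* stood lower in all 3 female comparisons (-0.31, -0.32 and -0.46, adjusted p = 0.0159, 0.0128 and 0.00106), and *Robo4* at 3 and 6 weeks (-0.29 and -0.42, adjusted p = 0.0368 and 0.00516). *Cdh5* stood lower in male hearts at 1 week (-0.62, adjusted p = 0.00588) and in female hearts at 3 weeks (-0.28, adjusted p = 0.0239). *Esam* and *Egfl7* were higher than the mean in male hearts at 1 week (0.47 and 0.50), and *Pecam1* and *Cldn5* in female hearts at 6 weeks (0.30 and 0.58). *Cav1* and *Cav2* were called in no comparison with control (-0.39 to 0.13).

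**Figure D3:**
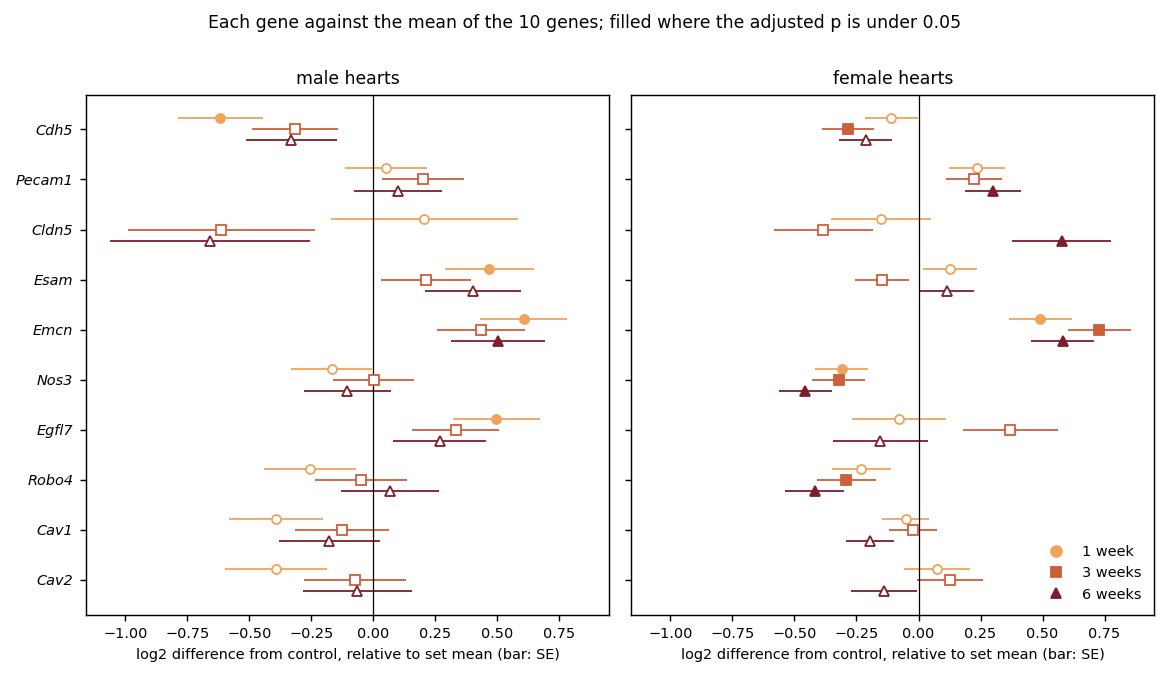
Difference from control of each gene relative to the mean of the 10 genes in the same library (horizontal axis, log2 units, bars are standard errors) at 1, 3 and 6 weeks; filled marks have an adjusted p under 0.05. Emcn is filled to the right of 0 in 5 of 6 comparisons and Nos3 to the left in the 3 female ones.

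Transgenic hearts without tamoxifen were compared next, since they share the alleles of the induced hearts. Against control, limma called 0 of the 10 genes in either sex (0.597% of all genes in male and 2.87% in female hearts), as did edgeR and DESeq2, and at an unadjusted p under 0.05 *Cdh5* was lower in male and *Nos3* lower and *Emcn* higher in female hearts. The male uninduced values were nevertheless on the low side, with 8 of 10 below control, a median of -0.28, and no overlap with control for *Cdh5*, *Pecam1*, *Robo4* and *Cav2*, where 6.74% of all genes lay below every control. The female median was -0.11, with 0 of 10 below every control (3.11% of all). Set against the uninduced hearts, male hearts had *Cdh5* lower at 1 week (-0.49, SE 0.16, adjusted p = 0.0322, 1 of 10 with 6.66% of all genes) and 0 of 10 at 3 and 6 weeks (5.46% and 7.4% of all). The 0 at 3 and 6 weeks held for edgeR and DESeq2 and at an unadjusted p under 0.05, and the *Cdh5* call was lost without the libraries numbered 2, 3 or 4. Female hearts had 5, 6 and 5 of 10 lower than uninduced hearts (4.26%, 6.15% and 9.08% of all genes): *Cdh5*, *Nos3*, *Robo4* and *Cav1* at all 3 weeks, *Cldn5* at 1 and 3, *Esam* at 3 and *Cav2* at 6 weeks. There *Nos3* differed by -0.61, -0.61 and -0.68 (SE 0.10) and *Robo4* by -0.60, -0.65 and -0.71 (SE 0.11).

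From week to week no member was called. The background was 0.0177% of genes between 3 weeks and 1 week, 0.165% between 6 weeks and 1 week and 0% between 6 and 3 weeks in male hearts, and 0.218%, 1.03% and 0% in female hearts. edgeR also called 0 members in these 6 comparisons, and DESeq2 called 2 between 6 and 3 weeks in female hearts and 0 in the others. At an unadjusted p under 0.05, male *Cdh5* and *Cav2* were higher at 3 weeks than at 1 week, and *Cdh5*, *Robo4* and *Cav2* higher at 6 weeks than at 1 week. In female hearts, 1 member was lower and 2 higher at 3 weeks than at 1 week at that level (*Esam*, and *Emcn* and *Egfl7*), 1 higher at 6 weeks than at 1 week (*Cldn5*), and 1 lower and 2 higher at 6 weeks than at 3 weeks (*Egfl7*, and *Cldn5* and *Esam*).

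Levels differed widely within the set. Per kilobase of transcript, *Cav1* was the most abundant member in control hearts of both sexes, at 85.3 ± 11.9 CPM per kilobase in male (SD, n = 3) and 86.6 ± 8.44 in female hearts (SD, n = 4). *Cdh5*, *Egfl7*, *Pecam1* and *Esam* followed at 37.9 to 65.2 in male and 46.9 to 65.7 in female hearts, and the other 5 lay between 9.71 and 13.8. In the male order, neighbours overlapped in their libraries from *Cav1* through *Cdh5* and *Egfl7* to *Pecam1*, and from *Cldn5* through *Cav2*, *Robo4* and *Emcn* to *Nos3*, and *Esam* stood clear of both sides. In the female order, *Cav1* stood clear of *Egfl7*, neighbours overlapped from *Egfl7* through *Cdh5* and *Esam* to *Pecam1* and from *Emcn* through *Cldn5* and *Cav2* to *Robo4*, and *Nos3* stood clear at the low end.

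Across libraries the 10 genes shared part of their variation. After the group means were taken out, the 45 pairs had a median Pearson's r of 0.360 over 18 male and 0.161 over 20 female libraries, with 16 and 10 pairs above 0.5 and 6 and 10 below 0. Over all libraries, *Cdh5* followed the mean of the other 9 most closely in female hearts (r = 0.930) and *Nos3* in male hearts (0.803), and *Emcn* least in female hearts (-0.004). These points share their groups, libraries and scaling, and no p is given. The genes whose log2 levels followed the mean of the set most closely, averaged over both sexes and 16617 genes, were *Sh3tc2* (0.794 in male and 0.937 in female libraries), *Arap3* (0.849 and 0.878), *Cd93* (0.810 and 0.893), *Plxnd1* (0.772 and 0.930), *Ssu2*, *Trp53i11*, *Tie1* (0.771 and 0.916), *Efr3b*, *Rnf144a* and *Mcc*.

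Male libraries differed in how their levels depended on base composition, and this moved with several members. The slope of each library's deviation on transcript GC content, over all genes, ran from -0.12 to 0.33 log2 units per 10% GC in male and from -0.06 to 0.09 in female libraries. The highest was male replicate 4 at 6 weeks (0.33), followed by replicate 4 at 1 week (0.14) and replicate 1 at 3 weeks (0.13). Within male groups, the deviation of *Esam* followed this slope with r = 0.873, that of *Nos3* with 0.780, *Egfl7* 0.666 and *Robo4* 0.658, all with transcripts of 53.9% to 58.2% GC, and *Cav2* (38.2% GC) with -0.253. The other members did not line up by GC content: *Cldn5*, the most GC-rich at 60.5%, had 0.238 and *Cdh5* (52.3%) 0.305, while *Emcn* (41.6%) had 0.179, *Pecam1* (50.1%) -0.077 and *Cav1* (43.4%) -0.091. In female groups the values of *Esam*, *Nos3*, *Egfl7*, *Robo4* and *Cav2* were 0.262, 0.193, -0.338, 0.088 and -0.753. After a correction for GC content and length, added after the data had been seen, 6, 5 and 3 of 10 members were called lower in male hearts and 8, 8 and 7 in female hearts, with the background at 21.1%, 15.5% and 18.6% of all genes in male and 18.5%, 22% and 28% in female hearts. *Nos3* and *Cav1* were then called lower at every week in male hearts as well.

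**Figure D4:**
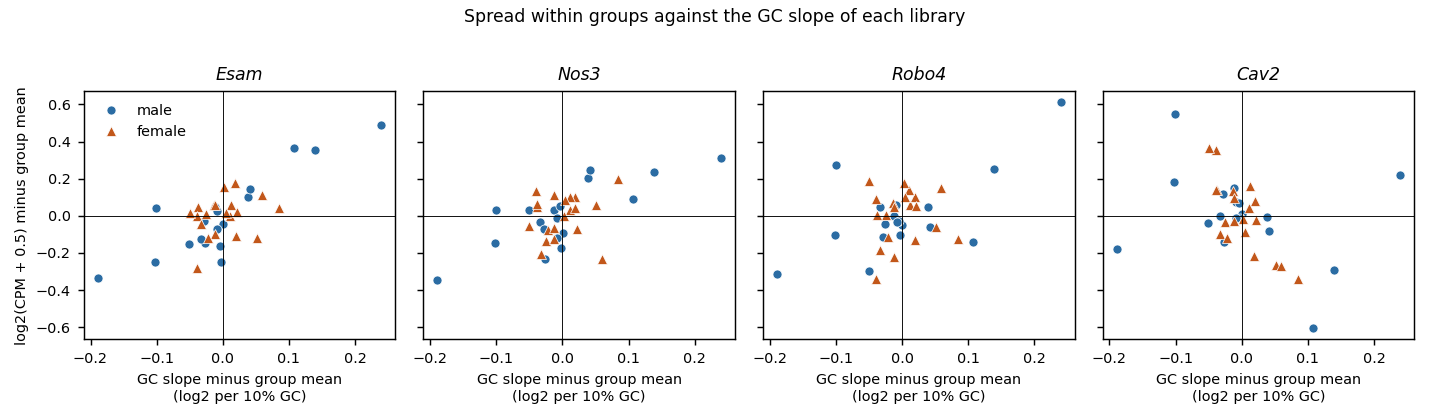
Deviation of Esam, Nos3, Robo4 and Cav2 from their group means (vertical axis, log2 units) against the deviation of each library's GC slope from its group mean (horizontal axis, log2 units per 10% GC), male as circles and female as triangles. Male Esam rises with the slope (r = 0.873) and female Cav2 falls with it (r = -0.753).

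The counts depended on the scaling. The deposited factors left the summed CPM at 1181923 to 1196278 in female control libraries and 848402 to 985319 in induced ones, and scaling every library to its own sum raised the median of all genes by 0.18 to 0.34 log2 units in male and 0.33 to 0.38 in female comparisons with control. On that scale 1, 0 and 0 members were called lower in male hearts and 2, 4 and 2 in female hearts, with a background of 3.82%, 2.33% and 3.51% and of 3.44%, 3.55% and 6.16%. Genes called higher made up 37.9%, 22.9% and 21.3% of all genes in male and 41.3%, 41.9% and 49.3% in female hearts on the same scale. *Nos3* and *Robo4* were called at every week in female hearts on that scale (-0.48, -0.48 and -0.50 for *Nos3*), *Cdh5* and *Esam* at 3 weeks (-0.44 and -0.30), and *Cdh5* in male hearts at 1 week (-0.64). Relative to the median of all genes on the same scale, the median of the set was -0.41, -0.31 and -0.27 in male and -0.52, -0.54 and -0.53 in female hearts.

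The set was placed beside other endothelial genes. Over all genes, 14.6%, 8.1% and 10.9% were called lower in male hearts at 1, 3 and 6 weeks and 13.1%, 14.5% and 21% in female hearts. The shares called higher were 13.2% to 21.7%. Of 30 other endothelial identity genes, 15, 9 and 12 were called lower and 2, 2 and 3 higher in male hearts, and 17, 19 and 19 lower and 2, 4 and 3 higher in female hearts. Their medians were -0.41, -0.29 and -0.30 and -0.49, -0.45 and -0.47, and stayed below 0 in every comparison under sum scaling and under the GC correction. Uninduced male hearts already had a median of -0.27 against control for these 30 genes, near the male values at 3 and 6 weeks. The uninduced female median was -0.01, and 0 of the 30 were called in uninduced hearts of either sex. *Kdr*, the main VEGF receptor, fell by 0.95, 0.85 and 1.18 on the log2 scale in male and by 0.66, 1.07 and 0.80 in female hearts, and *Erg*, an ETS factor of endothelial cells, by 0.85, 0.66 and 0.71 and by 0.60, 0.37 and 0.42. Uninduced hearts differed from control by -0.50 in male and -0.10 in female hearts for *Erg*. For *Kdr* the uninduced values were -0.30 and 0.03, and none of these was called. *Kdr*, *Flt1* and *Tie1* were also displayed by the study as endothelial markers of these hearts. *Vwf* and *Ecscr* were called higher at all weeks in both sexes. Of 11 capillary genes tested, 6, 5 and 5 were called lower in male and 9, 10 and 9 in female hearts, with none higher. Of 10 venous and activation genes, among them the leukocyte adhesion genes *Vcam1*, *Icam1*, *Sele* and *Selp*, 8 were called higher and 0 lower in each of the 6 comparisons, with medians of 1.87 to 2.29. Without tamoxifen 3 of the 10 were already called higher in female hearts and 0 in male hearts, with medians of 0.66 and 0.54. Their summed level was 244.8 to 683 CPM in uninduced and 181 to 246.9 in control female hearts. The male sums were 203.9 to 292.9 and 176.3 to 199 CPM. Genes of these lists were thus called in both directions, and *Vwf* was on both the identity list and the venous and activation list. The part of other cells in the genes called higher was not tested.

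Markers of other cells were set beside these values. The summed level of 10 fibroblast markers was 775 to 1228 CPM in male control hearts and 4905 to 10400 after induction, and 932 to 1231 and 5177 to 12640 in female hearts. The uninduced sums, at 1354 to 2098 CPM in male and 1494 to 1972 in female hearts, already lay above control. The cardiomyocyte sum was 69880 to 79880 CPM in male control hearts and 44870 to 70130 after induction, and 52450 to 70250 and 43730 to 58830 in female hearts. Of 11 pericyte and smooth muscle markers, 2, 1 and 2 were called lower in male and 3, 3 and 3 in female hearts, with 0 higher, where 14.6%, 8.1% and 10.9% of all male and 13.1%, 14.5% and 21% of all female genes were called lower, so the male counts were near the share over all genes. The part of these cells in the levels of the 10 genes was not tested.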

How the data were processed

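The authors aligned reads to GRCm39 with STAR and counted them per gene with featureCounts. The deposited signal values are called CPM by the authors, but each library's values were whole reads divided by 1 factor (100% of values whole within 0.001 reads) and summed to 817395 to 1196278. Male and female tables were normalised separately. Genes with at least 0.5 CPM in at least 3 libraries were kept, and log2(CPM + 0.5) was fitted with limma 3.58.1 (R 4.3.3, mean-variance trend) with all groups of a sex and Benjamini-Hochberg adjustment over all genes. The fold changes are on that scale. The test was tried on simulated counts first. Alternatives were edgeR 4.0.16 (quasi-likelihood) and DESeq2 1.42.0 on the recovered reads, pseudocounts of 0.1 and 2, no filter, at least 1 CPM in at least 4 libraries, 2 other scalings, only the groups compared, a replicate block, each replicate number left out, a log2 change of at least 1 and, added after the data had been seen, a correction for GC content and length. For the relative values, the mean of the 10 genes in each library was subtracted. Named were the 10 genes, their paralogs, binding partners and overlapping or neighbouring genes, and the 10 genes most like their mean; *Vwf*, *Ecscr*, *Vcam1*, *Icam1*, *Sele* and *Selp* were named after their values had been seen. The members and lists were chosen with earlier results of these data known. Transcript lengths and GC content came from GENCODE release M39. In all, 2 male libraries with conflicting labels were left out.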

Additional observations from a re-analysis of the deposited data

Results flagged for a closer look

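Of 80 groups of 4 libraries looked at for the 10 genes, 7 held a library far from the other 3 by Dixon's test at its 95% level, and chance alone marks about 1 in 20 groups. All 7 were in female hearts. *Egfl7* accounted for 3 of them: it stood at 52.88 CPM in uninduced replicate 4 against 96.95 to 103.7 in the others, at 46.98 in replicate 2 at 1 week against 68.12 to 71.69, and at 93.35 in replicate 1 at 6 weeks against 54.07 to 57.91. *Robo4* was at 42.81 CPM in uninduced replicate 2 against 57.96 to 60.33 and at 29.49 in replicate 2 at 3 weeks against 35.81 to 37. *Nos3* was at 42.24 CPM in control replicate 1 against 47.56 to 48.54 and at 28.53 in replicate 2 at 6 weeks against 23.43 to 23.81.

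The 2 male libraries with conflicting labels were marked for their *Il11* level. The library titled control and described as 6 weeks held 511.2 CPM, and the library titled 6 weeks and described as control held 0.597 CPM.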

How the results depend on the processing

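Of 960 values of single members under the alternatives, 832 kept direction and side of the threshold, 74 lost a call, 26 gained one and 28 turned direction; the causes were not tested beyond what each setting removes. DESeq2 called 2 members lower than control in male hearts at 3 weeks, 3 at 6 weeks, and 2 between 6 and 3 weeks in female hearts. With only the groups compared in the fit, 4 were lower in male hearts at 3 weeks, 2 against uninduced at 1 week, 0 relative to the set mean at 6 weeks; in female hearts 1 was higher at 3 weeks, 1 differed in each of 6 against 1 and 6 against 3 weeks, and 3 differed from the set mean at 6 weeks. Median-of-ratios scaling gave 2 in male hearts at 6 weeks and 2 at 1 week against uninduced. Scaling to the sum gave 1, 0 and 0 lower and 1 higher (1 week) in male hearts, 0 against uninduced at 1 week and 0 relative to the set mean at 6 weeks, and 2, 4 and 2 lower and 1, 1 and 1 higher in female hearts, with 2 and 2 against uninduced at 1 and 6 weeks. The GC and length correction gave 5 and 3 lower in male hearts at 3 and 6 weeks, 5 and 1 against uninduced at 1 and 6 weeks, 2 and 1 relative to the set mean at 1 and 3 weeks, and 8 in female hearts at 1 week against uninduced. A log2 change of at least 1 left 0 members in every comparison with control, on both scales, and 0, 1 and 0 in female and 0 in male hearts (1 week) against uninduced; the largest called change against control was -0.99. The mean of 8 genes without *Cav1* and *Cav2* gave 2 and 0 in male hearts at 1 and 6 weeks, the mean of other endothelial genes 1 and 0 at 3 and 6 weeks, and a pseudocount of 2 gave 0 at 6 weeks.

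Leaving out the libraries of each replicate number in turn gave 0 to 1 and 0 to 4 members lower in male hearts at 3 and 6 weeks, 0 to 2 and 0 to 1 against uninduced at 1 and 6 weeks, and 1 to 3 and 0 to 1 relative to the set mean at 1 and 6 weeks. Female hearts gave 5 to 7 at 1 week, 2 to 6 and 3 to 5 against uninduced at 1 and 6 weeks, and 1 to 2, 1 to 4 and 3 to 5 relative to the set mean. Replicate numbers did not pair libraries (mean r of deviations between same-numbered libraries 0.0132 in male and 0.0255 in female hearts, lowest -0.134 and -0.342; 5 of 18 and 9 of 20 libraries were most like one of their own number). With a replicate block, 5, 1 and 1 members were lower in male and 7, 6 and 7 in female hearts.

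The turned values, with no call except *Emcn* at 0.32, were as follows. Under sum scaling, *Pecam1* was 0.030 and 0.15 in male hearts at 1 and 3 weeks and 0.069, 0.070 and 0.26 in female hearts, *Cldn5* 0.18 (male, 1 week), *Esam* 0.16 (male, 3 weeks) and 0.073 (female, 6 weeks), *Egfl7* 0.16 (male, 6 weeks) and 0.22 (female, 3 weeks), and *Emcn* 0.32 (female, 1 week). Under the GC correction, male *Esam* was -0.14 and -0.14 at 1 and 6 weeks and male *Egfl7* -0.16 and -0.15 at 1 and 3 weeks. Male *Egfl7* at 3 weeks was -0.0078 with DESeq2, and female *Cldn5* at 6 weeks -0.0097 with edgeR. With replicate numbers left out in turn, male values ran from -0.0093 to 0.17 for *Esam* at 1 week and -0.12 to 0.23 at 6 weeks, from -0.18 to 0.013 for *Pecam1* at 3 weeks, from -0.039 to 0.34 for *Emcn* at 3 weeks, and from -0.089 to 0.08 for *Egfl7* at 3 weeks and -0.11 to 0.077 at 6 weeks. Female values ran from -0.075 to 0.11 for *Emcn* at 1 week and -0.019 to 0.23 at 6 weeks, and from -0.14 to 0.42 for *Cldn5* at 6 weeks.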

Other observations

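The 2 male libraries with conflicting labels belong to no group, and their levels of the 10 genes are given as values. The library titled control and described as 6 weeks held *Cdh5* at 183.3 CPM, *Pecam1* at 165.9, *Cldn5* at 10.09, *Esam* at 86.03, *Emcn* at 34.34, *Nos3* at 33.93, *Egfl7* at 63.83, *Robo4* at 47.14, *Cav1* at 210.6 and *Cav2* at 37.58 CPM. The library titled 6 weeks and described as control held *Cdh5* at 205.7 CPM, *Pecam1* at 154.3, *Cldn5* at 20.74, *Esam* at 78.84, *Emcn* at 23.72, *Nos3* at 44.54, *Egfl7* at 115, *Robo4* at 58.98, *Cav1* at 196.3 and *Cav2* at 36.18 CPM. Its *Cdh5*, *Cav1* and *Cav2* lay below the highest grouped male 6-week values (208.8, 197.1 and 39.22 CPM). The lack of overlap between male control and 6-week hearts for these genes thus depends on leaving it out.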
